A study of Mus musculus with 12 samples.

Results

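Long reading frames of endogenous retroviruses were followed in the RNA of 4 groups of mouse embryonic fibroblasts. The deposited retrovirus table lists 60983 reading frames by genome position. A frame was taken when its end minus its start was 1500 or more and its counts over all 12 libraries summed to 20 or more. That left 587 frames of the 13952 that pass the length alone and the 1794 that pass the total alone. Because the total was used to choose them, that these frames hold reads is not a result. Just inside the length limit lay frames of 1505 and 1508 with totals of 44.5 and 32.5 counts, and just outside it a pair of 1499 with 23 and 66 counts. At the limit on the total, 10 long frames held exactly 20 counts and were kept, and 11 held 0.5 counts less and were not. Another 6039 long frames had no count in any library.

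The fibroblasts had been immortalised by SV40 large T antigen, and all of them lacked Mlkl, which encodes the executioner of necroptosis. Fadd-/- Mlkl-/- cells carried either an empty vector or Fadd put back. Casp8-/- Mlkl-/- cells carried either an empty vector or Casp8 put back. FADD is the adaptor that joins caspase-8 to death receptors, and caspase-8 is the protease that death receptors activate to trigger apoptosis, which also restrains necroptosis. Each group had 3 independent cultures, untreated and harvested 24 h after plating, and the 2 cell backgrounds are called the Fadd line and the Casp8 line below. The labels do not say how many clones or embryos a line stands for, so genotype and the origin of a line cannot be told apart.

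Endogenous retroviruses are the remains of retroviruses that integrated into the germ line. An intact copy holds gag, pol and env genes between a pair of long terminal repeats, which carry its promoter, and most copies have lost part of their coding sequence. In somatic cells most are kept silent by DNA methylation and by histone H3 lysine 9 methylation laid down by SETDB1 after KRAB zinc finger proteins and TRIM28 bind them. A few have been taken over as genes of the host, such as Syna, which encodes the placental fusion protein syncytin-A, and Peg10, an imprinted gene derived from a retrotransposon.

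Where they could be read whole, the frames did not run from a start codon to a stop codon, and the bases beside them were not read. Bases of 26 frames could be read from GENCODE M21 transcripts on the same genome (GRCm38, the assembly also called mm10), and 6 of these could be read whole. None of those 6 opened with ATG or ended with a stop codon, and no frame had a stop in frame. The openings of 4 of them are shown around their first ATG in frame, which is in capitals, because these frames are met again in the values. The frame in AI506816 (shown from chr5:23703024-23703113, minus strand) had the highest level of all. The frame in AC132253.9 (chr19:9831291-9831374, minus strand) is among those lower without Fadd when libraries were paired. Gm43305 (chr14:54294999-54295088, minus strand) and Syna (chr5:134560034-134560099, minus strand) stand for frames of low level.
AI506816: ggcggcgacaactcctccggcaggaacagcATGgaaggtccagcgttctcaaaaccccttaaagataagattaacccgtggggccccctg
AC132253.9: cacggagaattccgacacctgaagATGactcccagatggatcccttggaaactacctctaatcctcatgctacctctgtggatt
Gm43305: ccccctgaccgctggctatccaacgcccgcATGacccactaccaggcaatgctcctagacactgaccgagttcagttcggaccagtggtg
Syna: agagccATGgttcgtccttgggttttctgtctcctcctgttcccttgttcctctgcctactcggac

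Some frames are near copies of one another, which bears on their counts below. Among the 17 frames with 300 or more bases read, 7 of 136 pairs aligned over 300 or more bases. In 1 of them, Gm47761 with Gm43305, the identity was only 67.5%. The remaining frames were not compared. The frame in AI506816 was 90.5% identical to that in AC158975.2 over 1722 bases, and the frames in Gm47761 and Gm42047 were 99.3% identical over 1112. A read from a stretch in which such copies do not differ could come from either. Values in the retrovirus table come in steps of 0.5, and 46.7% of the values over 0 were not whole. The sources used here do not say how its reads were shared between copies or whether strand was used. Reads of a frame and of a gene over it on either strand therefore cannot be told apart, and a frame and the gene that holds it are not independent measurements.

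Certain lengths recurred among the frames. A length of 3899 was shared by 53 frames on 17 chromosomes, 3545 by 39, 2684 by 24, 1931 by 15, 2681 by 14, 1811 by 11 and 2069 by 10. The median length was 2681, with a range from 1505 to 4145. The longest was chr9:67976817-67980962, on the strand opposite to Vps13c, with 41 counts in all. The next were chr4:89540908-89544984 (length 4076, between genes, 24 counts) and chr10:19782790-19786788 (length 3998, overlapping the small nuclear RNA gene Gm25256, 22 counts). These 3 held too few counts to be tested.

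By position, 257 frames lay in a gene on the other strand, 154 between genes, 150 in an intron of a gene on the same strand and 26 over an exon of a gene on the same strand. Any overlap with an exon put a frame in this last class, and 11 frames had 70% or more of their bases in exons of the gene. The 26 frames of this class held 57.0% of the counts of the long frames, counted over the whole frame. The frames between genes held 17.5%, the intronic ones 14.3% and those on the other strand 11.2%. The frames were grouped into 549 loci by joining those on 1 strand within 500 bases, and 32 loci held several (26 held 2 and 6 held 3). Of the 38 neighbouring pairs within loci, 23 overlapped and 11 were set apart by a difference of 4 between the end of one and the start of the next.

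The long frames held 239822 of the 632725 counts in the table (37.9%), most of them in a few frames. The frame with the highest level took 29.2% of these counts and the 8 highest took 71.2%. The median frame held 43.5 counts over 12 libraries, 20 frames held 1000 or more and 361 held under 60. Levels are given as CPM, counts per 1000000 gene counts of the same library, which totalled 33918361 to 59388570 per library. The fits below used the 169 long frames (of 504 frames of any length) that passed edgeR's filter at a minimum count of 10. The remaining long frames held too few counts and are described only by their totals and sums. The p-values measure the spread between the cultures of these lines.

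Summed over the 587 frames, the Fadd knockout was at 362, 485 and 466 CPM in its 3 libraries, and restored Fadd gave 349, 425 and 411 CPM. It was 362, 450 and 556 CPM in the Casp8 knockout libraries and 383, 355 and 498 CPM with Casp8 put back. The means were 438 ± 66.4, 395 ± 40.3, 456 ± 97.0 and 412 ± 75.4 CPM in that order (SD, n = 3 each), and the ranges of all 4 groups overlapped. Group means by position differed more than the totals, and were not tested. Frames over exons held 286 ± 92.9 and 258 ± 39.7 CPM in the Fadd knockout and put back groups, against 222 ± 27.1 and 203 ± 11.3 CPM in the Casp8 groups. Frames between genes went the other way, with 54.0 ± 23.4 and 52.5 ± 10.8 CPM in the Fadd groups and 95.3 ± 33.7 and 93.9 ± 63.4 CPM in the Casp8 groups. In both classes 1 frame carried most of this: without chr5:23701149-23703218 the frames over exons held 122 ± 8.64, 112 ± 3.15, 126 ± 25.7 and 113 ± 7.94 CPM in the 4 groups, and without chr3:5860754-5862853 the frames between genes held 22.8 ± 2.98, 27.3 ± 4.62, 33.2 ± 11.5 and 32.8 ± 3.34 CPM. Leaving these frames out was chosen after the values were seen. In bulk RNA, fewer cells with a transcript and less of it per cell cannot be told apart.

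**Figure D1:**
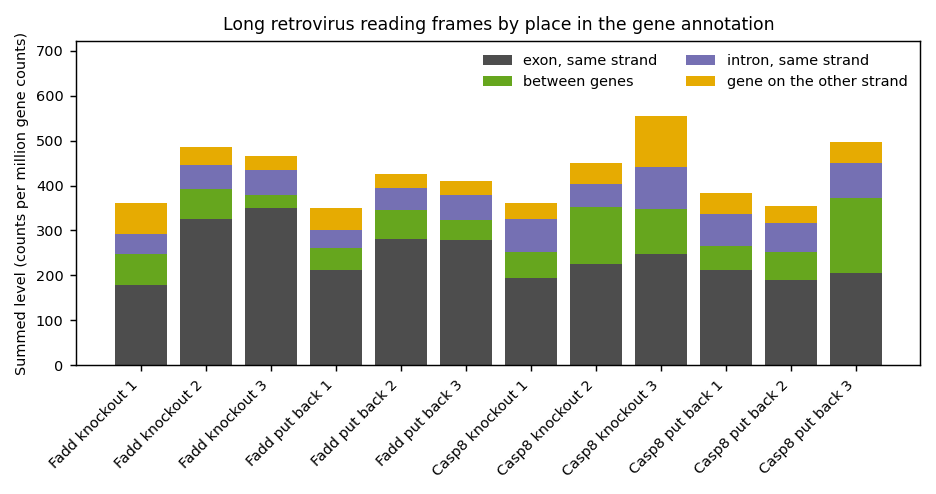
Summed level of the 587 long frames in each library (vertical axis, CPM), stacked by where the frames lie in the gene annotation. Frames over exons on the same strand make up the largest block in every library, and the third Casp8 knockout library has the highest total, 556 CPM.

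A pair of libraries stood apart. In the third Casp8 knockout library, the shallowest of the 12, 344 of the 587 frames had their highest level, and the 361 frames with under 60 counts summed to 62.5 CPM there against 10.5 to 25.7 CPM in the other 11. The first Fadd knockout library had the lowest share of gene counts in protein-coding genes, 81.4% against 85.0% to 88.8% in the others, and the highest summed level of shorter frames, 927 CPM. The part of these features in the results was not tested. Some results are also given without 1 or both of these libraries, but the fits with pairing were not repeated without them. Fadd itself was at 0.102 ± 0.0739 CPM in its knockout and 24.5 ± 4.16 CPM when put back, and Casp8 at 11.1 ± 0.772 and 135 ± 58.3 CPM (SD, n = 3). Of 11 fibroblast markers, 7 were at 1 CPM or more in every library, and their sum over all 11 ranged from 2014 to 3241, 3281 to 4983, 6387 to 18135 and 9760 to 14626 CPM in the Fadd knockout, Fadd put back, Casp8 knockout and Casp8 put back groups, lower in every library of the Fadd line than in any of the Casp8 line. Of 17 markers of other cell types none was, 2 were at 0 throughout, the highest value was 2.16 CPM, and their sum ranged from 1.94 to 2.42, 3.46 to 4.78, 3.39 to 4.17 and 2.95 to 3.45 CPM in the same order. The part of either list in the line differences below was not tested.

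Per kilobase, the order of the highest frames was the AI506816 frame at 59.9 CPM, the intergenic chr3:5860754-5862853 at 21.4, chr17:32372993-32374630 at 17.3, chr8:121835414-121838953 at 12.8, the Peg10 frame at 8.89, chr5:23703026-23706604 at 6.58, chr8:121833638-121835410 at 5.05 and chr2:156831234-156833123 at 3.81 (means over 12 libraries). Of these 8, 6 overlap an exon on the same strand: a pair in AI506816, a pair in the long noncoding RNA gene Gm42047, 1 in Gm14230 and 1 in Peg10.

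The AI506816 frame chr5:23701149-23703218 was at 59.9, 212 and 220 CPM in the Fadd knockout, 98.7, 173 and 165 CPM after Fadd was restored, 95.6, 95.4 and 98.7 CPM in the Casp8 knockout and 98.5, 85.5 and 85.4 CPM with Casp8 put back. The first library of each Fadd group was the low one of its group, and the Casp8 groups were tight. The line difference was a log2 change of 0.66 ± 0.26 (SE, Fadd over Casp8 line, edgeR adjusted p = 0.124), and without the first Fadd knockout library it was 0.86 with an adjusted p of 0.00104. The gene AI506816, which shares these reads, differed between lines by 0.72 with an adjusted p of 0.120. Its RefSeq promoter on GRCm38.p6 (chr5:23712618-23712917, minus strand), printed here with CG in capitals because this gene holds the highest frame, holds 21 CG, and 24.8% of 32851 promoters of this length hold as many or more. The median promoter holds 7.
AI506816 promoter: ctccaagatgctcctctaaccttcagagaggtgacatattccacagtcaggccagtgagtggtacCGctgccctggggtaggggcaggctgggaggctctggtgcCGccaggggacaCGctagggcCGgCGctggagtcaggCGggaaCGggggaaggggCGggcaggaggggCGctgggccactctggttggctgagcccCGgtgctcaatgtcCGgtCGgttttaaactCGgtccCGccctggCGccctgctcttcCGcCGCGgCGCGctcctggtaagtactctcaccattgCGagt

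The long noncoding RNA gene Gm42047 holds a pair of the 8 highest frames. Its frame chr8:121835414-121838953 was at 77.7, 43.4 and 62.5 CPM in the Fadd knockout and 39.7, 26.7 and 43.9 CPM with Fadd put back, so the groups overlapped. The Casp8 groups were at 38.0, 39.5 and 51.1 CPM and 46.9, 33.8 and 40.2 CPM. The intergenic chr3:5860754-5862853 was the most uneven, with 46.3, 40.2 and 7.34 CPM in the Fadd knockout and 16.6, 33.6 and 133 CPM with Casp8 put back. The nearest annotated gene to it, Gm37350, is 17979 bases away. The intronic frame in Gm26858, chr17:32372993-32374630, was at 10.1 to 33.9 CPM in the Fadd line and 22.8 to 48.1 CPM in the Casp8 line, with a log2 line difference of -0.85 ± 0.30 and an adjusted p of 0.0772. The Gm14230 frame was at 4.33 to 7.24 CPM and 5.78 to 11.1 CPM, with -0.58 ± 0.19 and 0.0575. It was called with DESeq2 (adjusted p = 0.0272), with a replicate block over all libraries (0.0363) and without the first Casp8 knockout (0.0394) or the first Casp8 put back library (0.0473). Without pairing, none of the 8 was called in a knockout comparison by edgeR. With pairing within each line chr8:121835414-121838953 (adjusted p = 0.0386) and the Peg10 frame (0.0317) were called for Fadd, and DESeq2 called the Peg10 frame (0.0373). In the unpaired fit their log2 changes ran from -1.62 (the Peg10 frame) to 0.75 for Fadd and from -0.34 to 0.58 for Casp8.

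**Figure D2:**
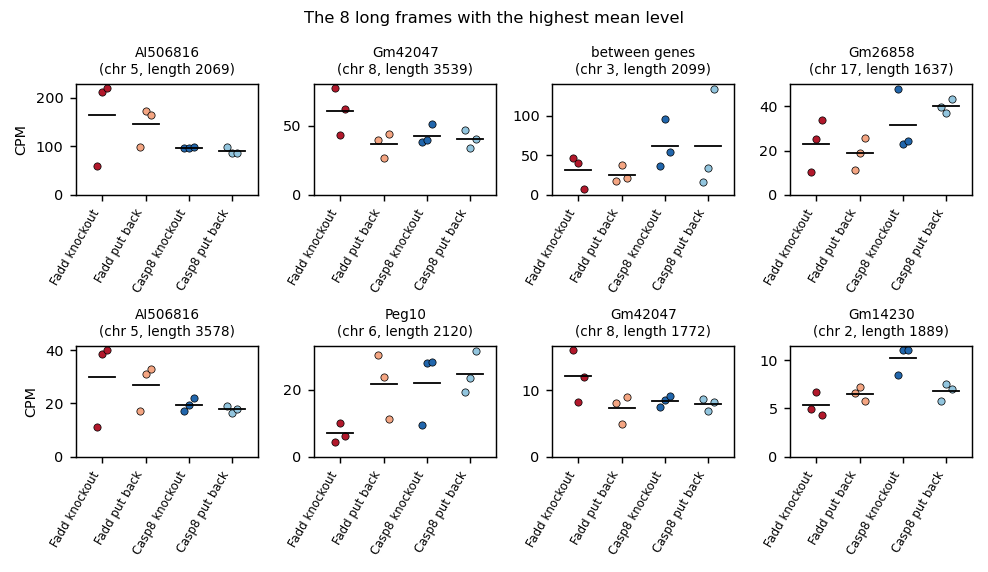
Level in CPM (vertical axis, each panel from 0 on its own scale) of the 8 long frames with the highest mean, 1 point per library and a line at the mean of each group of 3. The first library of each Fadd group is low for both AI506816 frames, and the Fadd knockout points of Peg10 (4.34 to 10.1 CPM) lie below all put back points.

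Loss of Fadd was compared with its restoration in the same cells. Of the 169 tested long frames 1 was lower in the knockout and none was higher by edgeR's quasi-likelihood test at an adjusted p under 0.05, against 3 of all 504 frames tested (0.595%). At an unadjusted p under 0.05, 5 long frames were higher and 8 lower (8.73% of all frames). DESeq2 called 7 lower and limma-voom 5 lower. The median log2 change of the 169 was 0.01, and of all 504 it was 0.03. In 8 long frames all knockout libraries lay above all put back ones (5.75% of all frames tested), and in 15 they lay below (7.94%).

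The called frame, chr7:48126559-48129195 on the minus strand, lies between genes, 9118 bases from Gm28665. It had no count in any Fadd knockout library and 0.183, 0.389 and 0.238 CPM with Fadd put back. The Casp8 line was at 0.577, 0.991 and 1.15 CPM in the knockout and 0.128, 0.615 and 0.724 CPM with Casp8 put back. The Fadd knockout thus lay below every other library. Against the limit of 3 counts over the group that a total of 0 allows, it was at least 13.7-fold lower than with Fadd put back, which rests on 34.5 counts (edgeR adjusted p = 0.0142). In a fit of only the 6 libraries of the line the frame did not pass the filter on low counts, and edgeR called none of the 96 long frames tested there (9 at an unadjusted p under 0.05; 5 of all 307 frames, 1.63%, were called). Among all 12 libraries the frame passed only with those of the Casp8 line, so its call is a description. In the alternatives that tested it, it missed the threshold without the first (0.0822) or the third (0.0542) Fadd knockout library, without the second (0.0647) or the third (0.0528) put back library, and without both libraries that stood apart (0.0878, the highest of them).

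When the libraries of a line were paired by replicate number, 11 long frames were called, 4 higher and 7 lower (22 of 504 frames, 4.37%). The lower ones were the frame on chromosome 7, a pair in the noncoding gene Gm49708 on chromosome 16, a pair in AC132253.9 on chromosome 19, the Peg10 frame and chr8:72028370-72030745 between genes. The last of these rests on 1 count without Fadd against 25.5 with it, a ratio of 30.3 (95% counting interval 4.86 to 1220). The 4 higher ones were chr8:121835414-121838953 in Gm42047 and the 3 frames of 1 locus on the strand opposite to Def8, where the reference genome holds the ecotropic provirus Emv2.

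In AC132253.9 the frame chr19:9829590-9831374, whose opening is printed above, was at 0.155, 0.950 and 0.653 CPM without Fadd and 1.93, 2.94 and 2.33 CPM with it. Its neighbour chr19:9831283-9833919, which overlaps it and lies before it on the strand, was at 0.192, 1.14 and 0.707 CPM and 2.0, 3.85 and 2.55 CPM. In both, no knockout library reached a put back one. Their log2 changes were -2.01 ± 0.52 and -2.03 ± 0.54 with adjusted p of 0.0777 and 0.0834, and 0.0162 and 0.0150 with pairing. In the Casp8 line the same frames lay above the put back level without Casp8 in all libraries, at 2.12 to 3.74 CPM over 1.23 to 1.73 CPM for the first and 1.95 to 4.57 CPM over 1.44 to 1.84 CPM for the second, with adjusted p of 0.776 for both.

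In Gm49708 the intronic frame chr16:90343979-90346615 was at 0.292, 1.51 and 0.860 CPM without Fadd and 2.58, 4.73 and 3.61 CPM with it. The frame next to it, chr16:90347358-90349199, was at 0.256, 1.73 and 1.08 CPM and 3.43, 4.67 and 3.97 CPM. The groups did not overlap in either, and the log2 changes were -2.0 ± 0.48 and -1.94 ± 0.50 (adjusted p = 0.0777 for both, 0.0150 with pairing). The Casp8 line was at 1.25 to 2.86 CPM over both frames and overlapped the Fadd knockout.

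The Peg10 frame lies over an exon of this imprinted gene. It was at 4.34, 10.1 and 6.29 CPM without Fadd and 30.4, 23.8 and 11.2 CPM with it, again without overlap. The log2 change was -1.62 ± 0.45 with an adjusted p of 0.0986, and -1.59 with 0.0317 when paired. The Casp8 groups were at 9.40, 28.0 and 28.3 CPM and 19.2, 23.6 and 31.6 CPM. The gene Peg10 as a whole, which shares these reads, moved by -1.63 with an adjusted p of 0.192.

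The locus opposite Def8 holds 3 long frames. From the 5' end, chr8:123431904-123433835 was at 0.347, 0.698 and 0.490 CPM without Fadd and 0.0571, 0.201 and 0.195 CPM with it, chr8:123428313-123431900 at 0.749, 1.69 and 1.10 CPM and 0.0685, 0.652 and 0.551 CPM, and chr8:123426364-123428661 at 0.923, 2.15 and 1.49 CPM and 0.194, 0.690 and 0.681 CPM. Each frame was higher in every knockout library than in any put back one. The log2 changes were 1.80 ± 0.73, 1.47 ± 0.81 and 1.54 ± 0.69 with adjusted p of 0.426, 0.741 and 0.516, and 0.0463, 0.0459 and 0.0287 with pairing. The gene Def8 on the other strand moved by 0.20 with an adjusted p of 0.848. In the Casp8 line the same frames spanned 0.187 to 3.23 CPM, and the knockout and put back libraries overlapped in all 3. The largest rise among tested long frames in the Fadd comparison, chr19:60927780-60931367 opposite Grk5, rested on 4 counts against 1.5 (ratio 2.24, 95% counting interval 0.241 to 18.6, which covers counting error only).

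**Figure D3:**
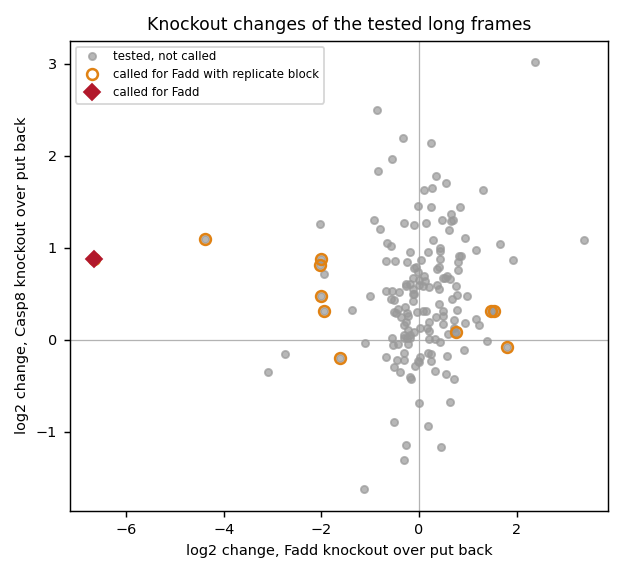
Fitted log2 change of the 169 tested long frames in the Fadd comparison (horizontal axis) and the Casp8 comparison (vertical axis), knockout over put back. The diamond is the frame called for Fadd, at a fitted -6.66 that depends on the prior count since its knockout group has no counts, and circles mark frames called for Fadd with pairing.

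Loss of Casp8 gave no called long frame by edgeR (0 of 504 frames of any length, 0.0%), with 4 higher and 1 lower at an unadjusted p under 0.05 (5.56% of all frames). DESeq2 called 1 and limma-voom none. The median log2 change was 0.44 over the 169 long frames and 0.36 over all 504. Without the third Casp8 knockout library it was -0.08 and -0.07. Scaling by the totals of the retrovirus table in place of the gene totals moved the median of all frames to 0.14, and that of the Fadd comparison from 0.03 to -0.095. In 6 long frames the knockout libraries lay above all put back ones (4.76% of all frames tested) and in 3 below (0.595%).

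The smallest p for Casp8 was that of chr15:76560551-76562620, which lies between genes, 13738 bases from Adck5. It was at 0.400, 1.90 and 2.93 CPM in the Casp8 knockout and 0.353, 0.244 and 0.317 CPM when Casp8 was put back, so that all knockout libraries were above, the first by little. The log2 change was 2.5 ± 0.58 with an adjusted p of 0.277. It was called with DESeq2 (2.54, adjusted p = 0.0268) and by edgeR without the first Casp8 knockout library (2.97, adjusted p = 0.0038). In the Fadd line the frame was at 0.0762 to 0.194 CPM. The largest rise was chr7:104252901-104255198 opposite Trim34a, at 0, 0.396 and 0.767 CPM against 0.0196, 0.0337 and 0.0694 CPM (3.02 ± 1.17, adjusted p = 0.720), and the largest fall chr3:96510690-96513197 between genes, at 1.78, 0.716 and 0.870 CPM against 6.58, 1.92 and 2.05 CPM (-1.62 ± 0.56, adjusted p = 0.613).

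The knockout changes were also set against each other. One long frame, chr7:48126559-48129195, differed between the lines' knockout changes (1 of 504 frames, 0.198%), with an adjusted p of 0.0487 by edgeR. This frame passed the filter on low counts only with libraries of the Casp8 line, in most of which it is higher, so its call is a description. Its Casp8 change was 0.88 ± 0.61 with an adjusted p of 0.821. The call was lost without the first or the third Fadd knockout library (0.0996 and 0.120), any 1 of the 3 Fadd put back libraries (0.0504, 0.155 and 0.107), the second or the third Casp8 knockout library (0.111 and 0.0951) or the second or the third Casp8 put back library (0.0961 and 0.0527). With pairing 5 long frames differed, all lower for Fadd than for Casp8 (8 of 504 frames, 1.59%): that frame, the pair in AC132253.9 and the pair in Gm49708, with adjusted p of 0.0260 to 0.0487. Without pairing, 11 long frames were lower for Fadd than for Casp8 and none higher at an unadjusted p under 0.05 (5.36% of all frames), while DESeq2 called 6 lower and limma-voom 1 lower, and neither called one higher. The largest positive difference was that of chr19:60927780-60931367 (2.30 ± 1.75, adjusted p = 1), which rests on the few counts given above.

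More long frames were called between the 2 lines than in either knockout comparison. The line comparison sets 6 libraries against 6 and each knockout comparison 3 against 3, so these numbers of calls do not compare the sizes of the differences. Over the groups of each line, 34 of 169 long frames were called (20.1%, against 80 of 504 frames of any length, 15.9%). Of these, 5 were higher in the Fadd line (6.15% of all frames tested) and 29 lower (9.72%). Of the 29, 18 reached the minimum of 10 counts (0.217 CPM) in fewer than 3 libraries of the Fadd line, and all 5 did so in the Casp8 line. These passed the filter only through the line in which they are high, so their number is a description and no support. The absolute log2 changes of the 34 ran from 1.01 to 7.97 with a median of 2.81. In 3 long frames the Fadd line libraries lay above all 6 of the Casp8 line (2.98% of all frames tested), and in 15 they lay below (4.17%). The median change was -0.43 over long frames and -0.20 over all, and without the third Casp8 knockout library -0.20 and 0.10, with 7 higher and 25 lower long frames called. Of the 34 called frames, 29 were called again without that library.

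By position, 17 of the 41 tested long frames between genes were called (24.7% of all 97 frames there of any length), 4 of 18 over exons (21.6% of 51), 7 of 57 in a gene on the other strand (14.1% of 191) and 6 of 53 in introns (10.9% of 165). The 34 came from 28 loci. Of the 10 inside a gene on the same strand, the gene was called in the same direction in 5 and not called in the other 5. There were 6 frames lower in the Fadd line with no count in any Fadd knockout library, and 3 of these had none with Fadd put back either.

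On chromosome 1, 3 frames spread over one stretch of the minus strand between genes were seen in the Casp8 line and almost not in the Fadd line. These and the frames on chromosomes 2 and 14 below passed the filter only through the Casp8 line, and their values are given as a description. The frame chr1:44384373-44387786 was at 0.955, 1.51 and 1.46 CPM in the Casp8 knockout and 1.52, 1.31 and 1.51 CPM with Casp8 put back, and 5 of 6 Fadd line libraries were at 0, the other at 0.0376 CPM. This is 392.5 counts against 1.5, a ratio of 261 (95% counting interval 53.7 to 1619). Its neighbour chr1:44376163-44378745 held 117.5 counts against 1, and chr1:44369523-44373422 held 62.5 counts against 0, at least 20.8-fold lower in the Fadd line. The frame chr2:57215146-57217215, 904 bases from Gm13526, had no count in the Fadd line and 0.388, 0.936 and 1.08 CPM and 0.884, 0.320 and 0.377 CPM in the Casp8 groups, at least 59.7-fold lower in the Fadd line. On chromosome 14, chr14:53691557-53693161 likewise had no count in the Fadd line and 56.5 in the Casp8 line, at least 18.8-fold lower.

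Chromosome 13 held the reverse case. All 5 frames named in this paragraph passed the filter only through the Fadd line, in which they are high. Their fitted changes and adjusted p are therefore given as a description. At chr13:119667471-119669183 the Fadd line was at 0.411, 1.85 and 1.45 CPM in the knockout and 1.46, 2.66 and 2.44 CPM with Fadd put back, and the Casp8 line at 0 to 0.0393 CPM. The log2 change was 6.10 ± 0.59 (Fadd over Casp8 line, edgeR adjusted p = 2.81e-06). The frames before it on the same strand went the same way: chr13:119664854-119667490 was at 0.466 to 3.12 CPM against 0 to 0.103 CPM (5.47 ± 0.54), and chr13:119662279-119664063 at 0.247 to 1.02 CPM against 0 to 0.0666 CPM (5.0 ± 0.61). In all 3 the lowest Fadd line library, the first of the knockout, lay above the highest of the Casp8 line. The other 2 frames higher in the Fadd line were chr8:119890299-119892368 between genes, at 0.301 to 1.27 CPM against 0.0421 to 0.442 CPM (2.36 ± 0.48, adjusted p = 0.00198), and chr2:177913780-177915744 opposite Zfp972 (2.67 ± 0.81, adjusted p = 0.0332). The last call was lost in 8 alternatives, with adjusted p of 0.0548 to 0.126: without the first Fadd knockout library, the first or the third Fadd put back library, the first or second Casp8 knockout library, the second or the third Casp8 put back library, or both libraries that stood apart. The zinc finger gene Zfp972, whose reads cannot be told from those of a frame on its other strand here, moved by 3.49 (adjusted p = 0.0138).

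The frame with most counts among those lower in the Fadd line, apart from Peg10, was chr18:82699627-82701696 in the noncoding gene AC158975.2. It was at 0.502, 0.484 and 0.457 CPM and 0.891, 0.627 and 0.454 CPM in the Fadd groups, and at 2.89, 8.85 and 11.1 CPM and 5.30, 5.51 and 4.89 CPM in the Casp8 groups. The log2 change was -3.56 ± 0.32 (adjusted p = 1.39e-06), and that of the gene was -3.61 (adjusted p = 0.000123). This is the frame that shares 90.5% of its bases with the AI506816 frame, whose line difference has the opposite sign. At chr18:82699627-82701696 every library of the Fadd line lay below every library of the Casp8 line, while the knockout and put back groups overlapped within each line.

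Several other called frames lay in, opposite or near an annotated gene. The frame chr16:32148660-32151950 opposite Nrros was at 0.0731 to 0.503 CPM in the Fadd line and 0.952 to 5.0 CPM in the Casp8 line (-3.73 ± 0.46, adjusted p = 2.79e-05), while Nrros moved by -1.10 (adjusted p = 0.109). In an intron of Galnt11, a glycosyltransferase gene, 3 frames were lower, with -1.85, -1.56 and -1.37 from the 5' end, and the gene itself moved by -0.16 (adjusted p = 0.763). The first of these frames was at 0.0437 and 0.119 CPM per kilobase in the Fadd knockout and put back groups. In the Casp8 knockout and put back groups it was at 0.283 and 0.223. It passed the filter through the Casp8 line, in which it is high, so its change is a description. Opposite Grk5, a kinase of G protein-coupled receptors, chr19:60925918-60927972 was at 0 to 0.0251 CPM in the Fadd line and 0.278 to 1.19 CPM in the Casp8 line (-5.36 ± 0.57, adjusted p = 7.37e-06). The frame passed the filter only through the Casp8 line, so these values are a description. Here the gene was lower as well, by -1.08 (adjusted p = 0.00271). Near the histone gene Hist1h4m, 1447 bases away, chr13:21813594-21815231 was at 0.365 to 1.25 CPM against 2.64 to 4.77 CPM (-2.35 ± 0.29, adjusted p = 2.79e-05). In Noct, the gene of a circadian deadenylase-like phosphatase, the frame over an exon was at 0.126 to 0.276 CPM against 0.275 to 0.575 CPM (-1.38 ± 0.36, adjusted p = 0.0148) and the gene was lower by -0.77 (adjusted p = 0.0165). The call of the frame was lost without the first or the third Fadd put back library or the third Casp8 put back library (adjusted p = 0.0517 to 0.0659). The Peg10 frame was lower by -1.01 ± 0.31 (adjusted p = 0.0355). That call was lost in 11 alternatives, with adjusted p of 0.0555 to 0.130: no TMM factors, scaling by retrovirus table totals, both libraries that stood apart left out, or 1 library left out (the first or the third of the Fadd knockout, or the second or the third of any other group).

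**Figure D4:**
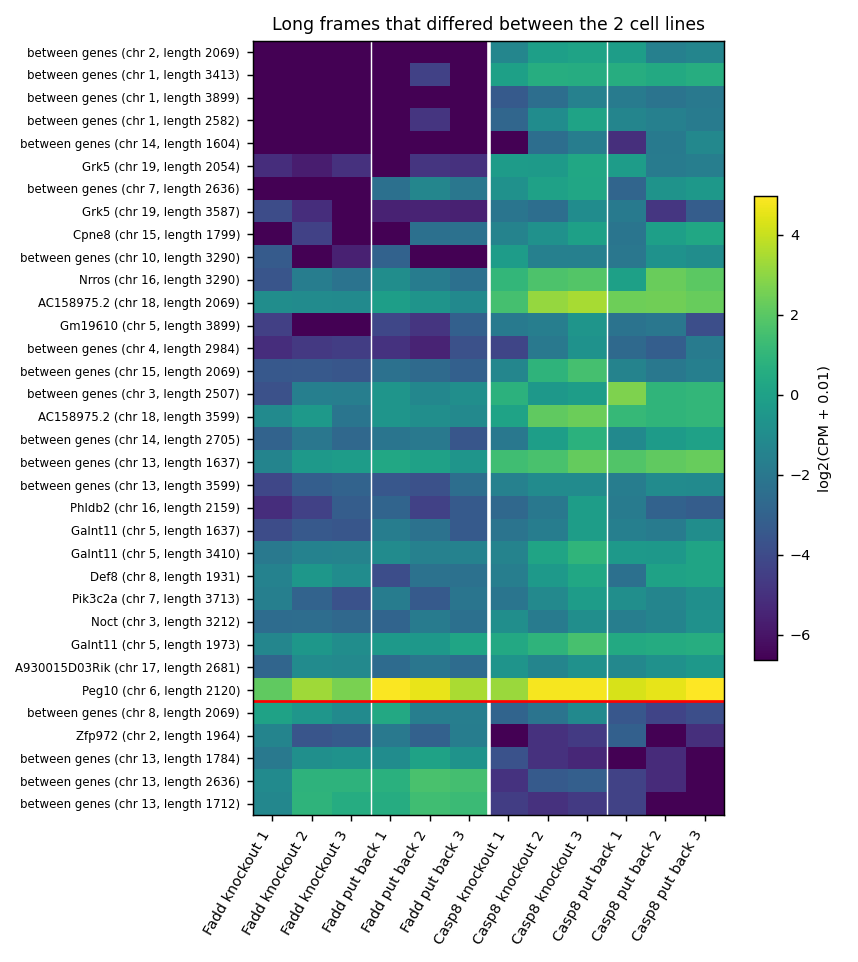
Level of the 34 long frames called between the lines, as log2 of CPM plus 0.01, with 1 column per library and 1 row per frame, named by an overlapping gene on either strand. Rows run from the most negative line change at the top, and the 5 rows under the red line are the frames higher in the Fadd line.

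Within loci that hold several long frames, levels per kilobase mostly rose towards the 3' end. The last frame was higher per kilobase than the first in 24 of 32 loci, with a median ratio of 1.70, and it was the highest of 3 in 4 of the 6 loci with 3 frames. In AI506816 the mean levels from the 5' end were 2.56, 6.58 and 59.9 CPM per kilobase, a ratio of last to first of 23.3. These frames also differ in exon cover, whose part was not tested. Exons of the gene covered all 2070 bases of the last frame and 324 of the 3579 bases of the middle one. The first was not among the frames over exons. In the Galnt11 intron the mean levels were 0.167, 0.198 and 0.621, opposite Grk5 0.0418, 0.0321 and 0.176, and opposite Def8 0.284, 0.352 and 0.579. In 8 loci the last frame was the lower one, and the lowest ratio, 0.05, was that of chr13:21813594-21815231 near Hist1h4m, at 1.43 CPM per kilobase, and chr13:21815235-21818834 behind it, at 0.0714. On the other strand of Snx6 the last frame was not the highest, with 0.0305, 0.0585 and 0.0570 CPM per kilobase. Neighbouring frames share bases in many loci, so these values are a description and were not tested.

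**Figure D5:**
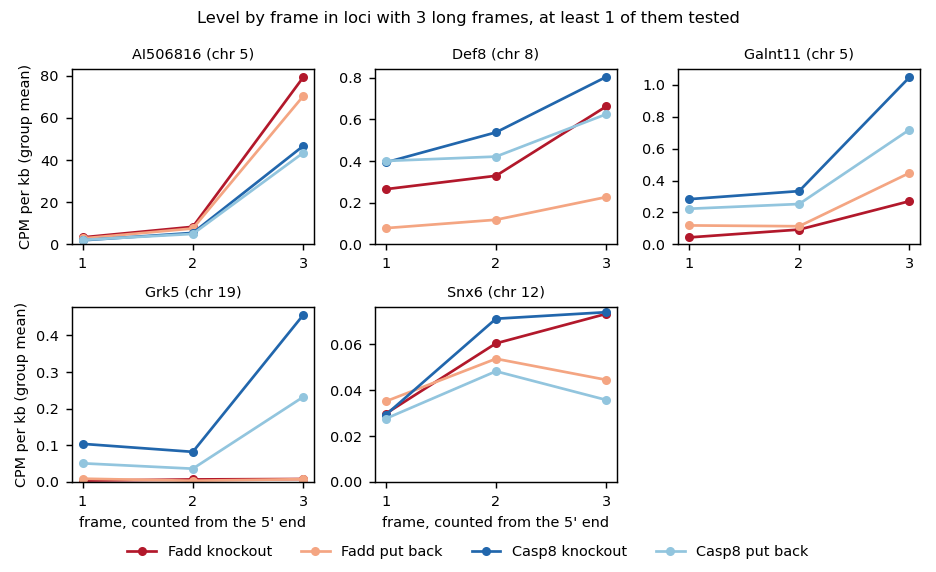
Mean level of each group in CPM per kilobase (vertical axis, each panel from 0 on its own scale) by frame, counted from the 5' end, in loci with 3 long frames of which at least 1 was tested, named by the gene they overlap on either strand. The last frame is the highest over all libraries in AI506816, Def8, Galnt11 and Grk5, and the Fadd line is close to 0 at Grk5.

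The 53 frames of length 3899 summed to 3.67 ± 2.10, 3.08 ± 1.32, 7.02 ± 6.27 and 4.07 ± 1.11 CPM (SD, n = 3; Fadd knockout, Fadd put back, Casp8 knockout, Casp8 put back), and the third Casp8 knockout library alone reached 14.2 CPM. The 39 frames of length 3545 summed to 4.86 ± 2.09, 5.40 ± 1.5, 6.19 ± 2.79 and 6.01 ± 1.08 CPM. The whole Syna frame held 72.5 counts, at 0.0397 to 0.265 CPM, and was not tested. Gm43305 was at 0.0376 to 0.506 CPM, with a log2 line difference of -0.92 and an adjusted p of 0.302.

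Genes that silence or restrict retroelements were read from the gene tables of the same libraries. Of 28 silencing genes listed (TRIM28 and SETDB1 with their partners, DNA and histone methyltransferases), 27 were tested. Suv39h1, an H3 lysine 9 methyltransferase, was lower without Fadd, at 48.4, 56.2 and 62.6 CPM against 99.6, 106 and 110 CPM (-0.89 ± 0.17, edgeR adjusted p = 0.0290), where 1.24% of 16396 genes were lower. DESeq2 called it as well (adjusted p = 7.89e-05), and the call was lost with a replicate block over all libraries (0.0535). No other silencing gene was called in the Fadd comparison (2 of 27 at an unadjusted p under 0.05), and none in the Casp8 comparison (1 unadjusted, none by DESeq2) or between the lines (3 unadjusted, 2 by DESeq2). Trim28 was at 402 to 427 CPM and Setdb1 at 75 to 96.9 CPM as group means. The median log2 change of the list was 0.02, -0.12 and -0.11 in the Fadd, Casp8 and line comparisons, against 0.0037, 0.0079 and -0.0098 over all genes.

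The list of restriction and sensing genes, called restriction genes here, held 20 symbols, some of them older and newer names of the same gene. All 18 genes that matched were tested. None was called for loss of Fadd (10 at an unadjusted p under 0.05, 4 by DESeq2) or of Casp8 (7 unadjusted, 2 by DESeq2). By edgeR's adjusted p, 0.287% and 0.0% of all genes were called higher (0.0061% lower for Casp8). The list medians were 0.95 and 0.87. For the unadjusted and DESeq2 counts of either gene list no share of all genes is given, so those counts have no background here. For the difference between the knockout changes no gene of either list was called (3 silencing and 2 restriction genes unadjusted, 1 of each by DESeq2), where 0.0549% of genes were higher and 0.787% lower. Between the lines 11 were higher in the Fadd line and 1 lower, where 8.15% of genes were higher and 11.4% lower, and the list median was 1.18. Among the 11 were Apobec3, a cytidine deaminase that mutates retroviral DNA (1.79 ± 0.22, adjusted p = 0.000342), Zbp1, a sensor of Z-form nucleic acids (5.31 ± 0.90, 0.00231), Adar, an RNA editing enzyme, and Zc3hav1, which binds viral RNA. Fv1, a capsid restriction factor that itself derives from a retroviral gag gene, was the lower one, at 6.18 to 7.80 CPM in the Fadd line and 8.64 to 14.3 CPM in the Casp8 line (-0.75 ± 0.16, adjusted p = 0.00872). Both lists were drawn up with results of these data known, so they are a description beside the frames. Their part in the levels of the frames was not tested.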

How the data were processed

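RNA of 12 libraries was sequenced after a stranded total RNA kit, per the labels' protocols. Gene tables hold RSEM expected counts that the authors deposited, on mm10 with GENCODE M22, per the labels. The retrovirus table holds counts per reading frame that are not all whole, so these deposited values were treated as estimated counts. How they were counted is not stated by any source used here. The submitters' processing notes name Trim Galore 0.5.0, STAR 2.7.5a, RSEM, Picard, HOMER 4.11, SAMtools and DESeq2, without a role for each.

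Both kinds of counts were rounded and tested with edgeR 4.0.16 (quasi-likelihood, R 4.3.3, 4 group means), keeping features by a minimum count of 10. Library sizes and TMM factors (0.940 to 1.07) came from the gene tables. P-values were adjusted by Benjamini-Hochberg over all 504 frames or 16396 genes, and a feature was called at an adjusted p under 0.05. The biological coefficient of variation was 0.496. DESeq2 1.42.0 and limma 3.58.1 (voom) were alternatives. Tested on simulated counts of 504 frames for the Fadd comparison, the fit recovered 62.9% of 89 changes of log2 size 2 and 97.5% of 79 changes of size 3, with 3 false calls. The simulation used the same coefficient of variation for every frame and changed far more frames than were called here. These shares therefore do not give the power in the data.

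Replicate numbers come from the labels. Over tested frames the deviations of same-numbered libraries from their group means correlated by 0.529, 0.381 and 0.390 (Fadd line) and 0.252, 0.313 and 0.152 (Casp8 line), so libraries were also paired by a replicate block within each line. Ranges of leave-one-out fits, other scalings and filters are given at the end.

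The frames and gene lists were chosen with earlier results of these data known. Values are given for the 8 highest frames, up to 4 called frames by smallest p in each direction and comparison, the frame of largest change where fewer than 2 were called, the 3 longest and those next to the limits. Other frames named were chosen after their values were seen. Sequences came from GENCODE M21 transcripts and RefSeq promoters, aligned with Biopython 1.88. Intervals and the floor of 3 counts for a group at 0 cover counting error only. Some items are not reported here.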

Additional observations from a re-analysis of the deposited data

Results flagged for a closer look

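The intergenic frame chr7:48126559-48129195 is listed because its knockout change differed between the lines by the interaction term of the edgeR fit. The fitted difference was -7.54 on the log2 scale (Fadd change minus Casp8 change, adjusted p = 0.0487). It depends on the prior count, since the Fadd knockout libraries hold no count. The frame was lower in 3 of 3 Fadd knockout libraries than in any put back one, and the Casp8 groups overlapped. It passed the filter on low counts only with libraries of the Casp8 line, in most of which it is higher, so the adjusted p is a description.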

How the results depend on the processing

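Across 76 results on named frames and 1404 alternatives, 1244 kept direction and side of the threshold, 79 lost the call, 57 gained one and 24 changed sign; the cause of the changes was not tested. Leaving out both libraries that stood apart was chosen after seeing the data. Long frames called for Fadd (1) became 7 with DESeq2, 5 with limma-voom, 10 with a replicate block over all libraries, 11 with the replicate block within each line, 0 with only the 6 libraries of the line, 0 without both libraries, and 0 to 5 with 1 library left out. For Casp8 (0) there was 1 with DESeq2 and 0 to 1 with 1 left out. For the difference (1) there were 6 with DESeq2, 5 with the replicate block within each line, 0 without both libraries and 0 to 4 with 1 left out. Between the lines (34) there were 57 when every frame with 20 or more counts was tested. Over the same alternatives, 27 to 34 of these 34 were called again. The block changed no other count of long frames by over 1.5 times. Over frames of any length, Fadd calls (3) became 15 with DESeq2, 10 with limma-voom, 7 with retrovirus table totals, 17 and 22 with the block over all libraries and within each line, 5 with only the 6 libraries, 0 without both libraries and 0 to 8 with 1 left out. Casp8 calls (0) became 1 with DESeq2 and 0 to 2 with 1 left out. The difference (1) became 12 with DESeq2, 2 with limma-voom, with retrovirus table totals, with every frame tested and with the block over all libraries, 8 with the block within each line, 0 without both libraries and 0 to 6 with 1 left out. Line calls (80) became 144 with every frame tested. Summed levels without the highest frame were 274, 249.6, 359 and 322 CPM in the Fadd knockout, Fadd put back, Casp8 knockout and Casp8 put back groups, and with a length limit of 1000 they were 543, 485, 565 and 505 CPM in the 4 groups. Silencing genes called became 0 for Fadd with the block over all libraries, and 1 for the difference and 2 for the line with DESeq2. Restriction genes called with DESeq2 were 4, 2 and 1 for Fadd, Casp8 and the difference. Changes of sign were all in frames not called in that comparison. With retrovirus table totals, Casp8 changes became -0.113 for chr3:5860754-5862853, -0.0291 for chr5:23701149-23703218, -0.0311 for chr5:23703026-23706604, -0.0748 for chr8:121833638-121835410 and -0.0785 for chr8:121835414-121838953. With 1 library left out, Casp8 changes ranged from -0.48 to 1.29 for chr3:5860754-5862853, from -0.44 to 0.16 for chr6:4755117-4757237 and from -0.0345 to 0.153 for chr8:121835414-121838953, and Fadd changes from -0.0860 to 0.69 for chr17:32372993-32374630, from -0.0613 to 0.777 for chr3:5860754-5862853, from -0.0924 to 0.601 for chr5:23701149-23703218 and from -0.12 to 0.565 for chr5:23703026-23706604. Without both libraries, chr3:5860754-5862853 had a Fadd change of -0.0614 and chr8:121835414-121838953 a Casp8 change of -0.0351. With only the 6 libraries, chr3:5860754-5862853 had a Casp8 change of -0.00275. With limma-voom, the difference for chr19:60927780-60931367 was -1.22.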
